A study of Homo sapiens with 8 samples.

Results

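The BCL2 family decides whether the outer mitochondrial membrane stays intact, and 10 of its genes were examined here: the pore-forming effectors BAX and BAK1, the BH3-only genes BID, BAD, BCL2L11, PMAIP1 and BMF, and the anti-apoptotic genes BCL2L1, BCL2L2 and MCL1. The members were chosen as the probes whose platform gene symbol was 1 of these 10 names. The rule found 24 probes of 48798 on the array, and all 10 genes were present among 18850 named genes. The samples were PC3 cells, an established human prostate carcinoma line, transfected with TRPM2-AS siRNA (4 samples) or a non-specific control siRNA (4 samples), with RNA taken 48 hours later. TRPM2-AS is RNA made from the strand opposite the ion channel gene TRPM2; its own level was not analysed here. Both groups shared the line, the medium and the transfection, 1 siRNA target was tested, and nothing in the labels shows that the replicates were grown separately. The p-values therefore speak of sample-to-sample spread that could be purely technical. Illumina bead arrays gave 1 intensity per probe, and the raw signals of 3 TRPM2-AS siRNA arrays (columns 1, 3 and 4) and 4 control siRNA arrays were compared. Array numbers are those of the raw columns and are not the replicate numbers of the samples.

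BAX and BAK1 form pores in the outer mitochondrial membrane that let cytochrome c out, which starts the apoptosome. Anti-apoptotic members such as BCL-XL (BCL2L1), BCL-w (BCL2L2) and MCL1 hold the effectors in check, and BH3-only proteins bind in the groove of those guardians or engage the effectors directly. The BH3-only proteins differ in partners: NOXA (PMAIP1) binds mainly MCL1, BAD binds BCL-XL and its closest relatives, and BIM (BCL2L11) binds all main guardians. PC3 cells carry no functional p53, the best known activator of BAX and PMAIP1.

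TRPM2-AS siRNA arrays detected 13832 to 14318 probes and control siRNA arrays 13163 to 13972 at a detection p under 0.01. Across genes, log2 intensities correlated at 0.983 to 0.994 among TRPM2-AS siRNA arrays, 0.990 to 0.994 among control siRNA arrays and 0.906 to 0.923 between groups; genes are not independent replicates. Markers of cell types were each read on the brightest probe of the gene. The keratins KRT8, KRT18 and KRT19, the adhesion gene EPCAM and VIM were detected on all 7 arrays. CDH1 was detected on all 3 TRPM2-AS siRNA arrays and on 0 of the 4 control siRNA arrays. The prostate secretory genes KLK2 and KLK3, the leukocyte genes PTPRC and CD3E, and the endothelial genes PECAM1 and VWF were detected on 0 arrays, and the prostate gene TMPRSS2 on 2 TRPM2-AS siRNA arrays and 1 control siRNA array. Of the fibroblast genes, COL1A2 and COL3A1 were detected on 0 arrays, and COL1A1 was detected on all 7.

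All 10 members were tested, and 9 passed (limma, Benjamini-Hochberg adjusted p under 0.05 over 9629 genes): 7 were higher with TRPM2-AS siRNA and 2 were lower. In the whole comparison 57.3% of genes passed, 28.5% higher and 28.8% lower, so many genes of any kind changed. The groups did not overlap for 8 members, 6 higher and 2 lower, as for 57.8% of all genes (28.9% higher and 28.8% lower). BMF is in both of these counts of members, but it entered the test only through the TRPM2-AS siRNA arrays and so had to differ. With detection required on at least 4 arrays BMF was left out, and 8 members passed, 6 higher and 2 lower. The median log2 fold change of the members was 0.42, against 0.00 over all genes. The members were chosen with earlier results of these data known, so these counts and this median cannot show a shift of the family. By fitted values PMAIP1, MCL1, BCL2L11 and BMF passed with a change of at least 2-fold, as 18.5% of all genes did. The bound of BMF is smaller than 2-fold. With no background correction BCL2L11 also changed by less than 2-fold (log2 fold change -0.58). In the authors' processed values BCL2L11 (-0.55) and MCL1 (0.99) were both below 2-fold. The pore formers split, with BAX lower and BAK1 higher. Among BH3-only genes PMAIP1, BMF and BID were higher, BCL2L11 was lower and BAD did not pass. The 3 anti-apoptotic genes were all higher. Fewer cells that express a gene and less RNA per cell cannot be told apart in these bulk samples.

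**Figure D1:**
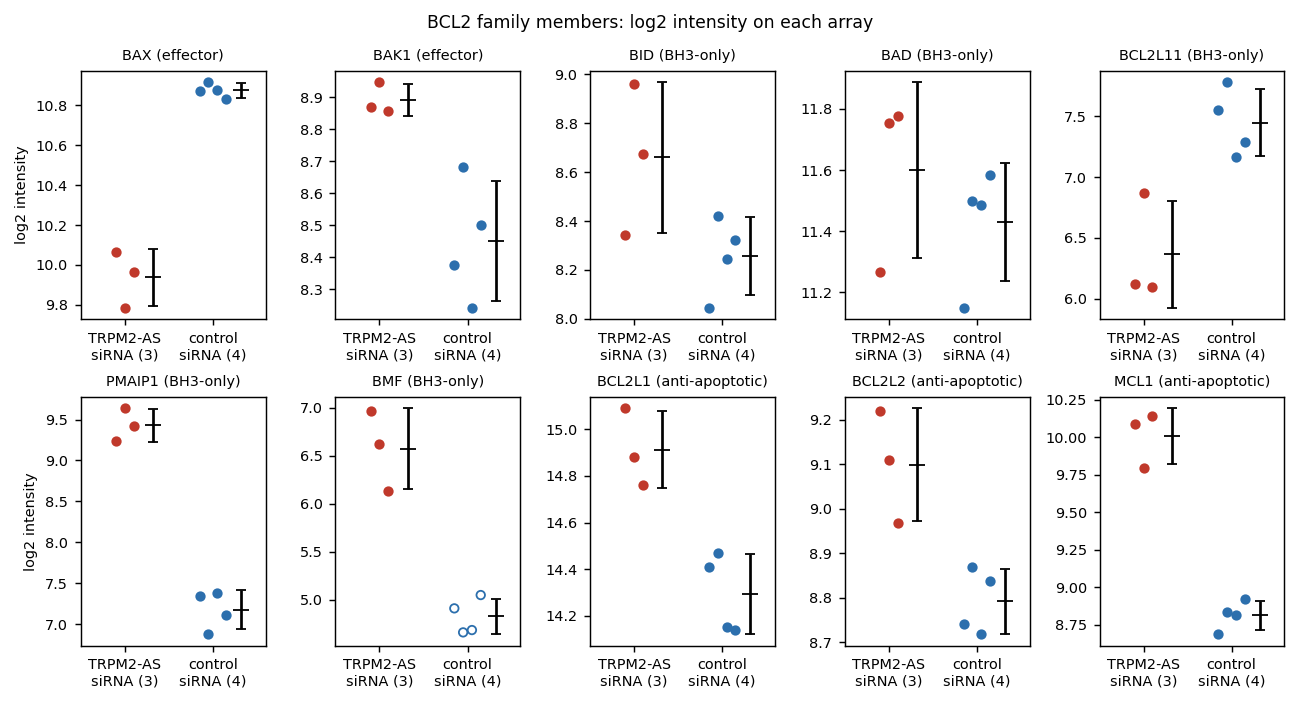
Log2 intensity of the probe used for each member (vertical axes, scaled separately) on 3 TRPM2-AS siRNA arrays, left in red, and 4 control siRNA arrays, right in blue, with the group mean ± SD as a black bar. Open circles mark BMF on control siRNA arrays, where it was not above background; BAX and BCL2L11 lie lower with TRPM2-AS siRNA, BID and BAD overlap, and the other 6 lie higher.

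The promoter windows of PMAIP1, BAX and BCL2L11 are printed because PMAIP1 had the largest rise of the members and BAX and BCL2L11 were those that fell, and each has 1 annotated start in the table. Sequences are from RefSeq (GRCh38.p14), 250 bases before to 50 after the annotated start, 5′ to 3′ on the gene's strand, and capitals mark matches to the 7 motifs named further on. The PMAIP1 window is chr18:59899746-59900045, the BAX window chr19:48954625-48954924 and the BCL2L11 window chr2:111120664-111120963, all on the plus strand.
PMAIP1: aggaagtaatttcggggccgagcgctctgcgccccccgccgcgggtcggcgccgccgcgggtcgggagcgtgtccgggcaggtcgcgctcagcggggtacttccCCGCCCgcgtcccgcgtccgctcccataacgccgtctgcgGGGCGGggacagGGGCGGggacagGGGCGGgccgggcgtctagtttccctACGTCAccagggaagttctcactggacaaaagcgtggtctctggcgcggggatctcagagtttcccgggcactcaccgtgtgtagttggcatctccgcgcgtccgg
BAX: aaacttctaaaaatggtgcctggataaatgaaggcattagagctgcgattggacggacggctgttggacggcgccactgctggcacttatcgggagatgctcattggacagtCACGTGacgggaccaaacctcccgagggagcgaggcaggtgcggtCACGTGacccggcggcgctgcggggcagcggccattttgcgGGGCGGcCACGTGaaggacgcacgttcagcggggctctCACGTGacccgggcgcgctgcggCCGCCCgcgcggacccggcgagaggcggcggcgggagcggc
BCL2L11: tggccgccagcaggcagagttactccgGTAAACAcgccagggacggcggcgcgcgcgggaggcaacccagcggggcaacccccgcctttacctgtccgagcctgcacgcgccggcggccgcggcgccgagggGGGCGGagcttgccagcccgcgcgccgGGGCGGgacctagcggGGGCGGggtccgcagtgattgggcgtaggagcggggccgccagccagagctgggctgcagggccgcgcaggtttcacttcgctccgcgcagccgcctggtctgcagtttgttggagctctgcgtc

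BAX, the effector held inactive in the cytosol until it is activated, read 10.06, 9.78 and 9.97 log2 units on the TRPM2-AS siRNA arrays, against 10.87, 10.92, 10.88 and 10.83 on the control siRNA arrays. Every TRPM2-AS siRNA array was lower than every control siRNA array. BAX averaged 9.94 ± 0.14 (SD, n = 3) with TRPM2-AS siRNA and 10.87 ± 0.04 (SD, n = 4) with control siRNA, a 1.91-fold fall (log2 fold change -0.94 ± 0.11 SE, limma adjusted p = 3.34e-05). The second detected BAX probe, ILMN_1683300, had a log2 fold change of -0.50 ± 0.18 SE (limma adjusted p = 0.0326 with each probe fitted on its own, where 56.2% of 12413 probes passed), and here the groups overlapped because TRPM2-AS siRNA array 1 read 7.64, within the control siRNA range of 7.54 to 7.74. The remaining BAX probe, ILMN_2258383, was detected on 0 arrays.

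BAK1, the effector that sits in the mitochondrial membrane, moved the other way. It read 8.87, 8.95 and 8.86 on the TRPM2-AS siRNA arrays, against 8.38, 8.68, 8.24 and 8.50 on the control siRNA arrays. The groups did not overlap, and control siRNA array 2 came closest. The log2 fold change was 0.44 ± 0.13 SE (1.36-fold, limma adjusted p = 0.0114), and BAK1 had 1 probe on the array. The change of BAX minus that of BAK1 was -1.38 log2 units (two-sided exact permutation test over the 35 splits of the arrays, p = 0.0286, the smallest the design allows, and adjusted p = 0.0429 over 3 such pairs). BAX was lower and BAK1 higher on every TRPM2-AS siRNA array than on any control siRNA array. Their difference therefore had to separate the groups, and this p adds no support to the separate calls.

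PMAIP1, which encodes NOXA, had the largest change of the members and ranked 172 of 9629 genes by the size of its log2 fold change. It read 9.24, 9.64 and 9.42 on the TRPM2-AS siRNA arrays, against 7.34, 6.88, 7.39 and 7.11 on the control siRNA arrays. The lowest TRPM2-AS siRNA array lay well above the highest control siRNA array. The means were 9.43 ± 0.20 (SD, n = 3) with TRPM2-AS siRNA and 7.18 ± 0.23 (SD, n = 4) with control siRNA, a rise of 4.77-fold (log2 fold change 2.25 ± 0.15 SE, limma adjusted p = 5.03e-07). Its other probe, ILMN_1689525, rose 3.37-fold (log2 fold change 1.75 ± 0.16 SE), also with the groups apart.

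BMF, a BH3-only protein tied to the actin and myosin motor system, was seen with TRPM2-AS siRNA alone. Probe ILMN_2308338 was above background on all 3 TRPM2-AS siRNA arrays, at 6.97, 6.62 and 6.13, and on 0 of the 4 control siRNA arrays, at 4.91, 4.66, 4.68 and 5.05. Since BMF entered the test through the group where it is high, its difference is a bound: it was at least 1.43-fold higher with TRPM2-AS siRNA, the mean of that group against the dimmest detected probe of each control siRNA array (limma adjusted p = 1.43e-05 for the fitted values). With no background correction its log2 fold change was 0.75, against 1.75 with it. A second BMF probe, ILMN_1695354, was detected on the same arrays and was at least 1.35-fold higher. The other 2 BMF probes, ILMN_1787794 and ILMN_1810239, were detected on 0 arrays.

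BCL2L11, which encodes BIM, was the other member that fell. It read 6.12, 6.87 and 6.10 on the TRPM2-AS siRNA arrays, against 7.55, 7.78, 7.17 and 7.29 on the control siRNA arrays. The groups did not overlap, with TRPM2-AS siRNA array 3 the nearest to control siRNA. BCL2L11 averaged 6.36 ± 0.44 (SD, n = 3) with TRPM2-AS siRNA and 7.45 ± 0.28 (SD, n = 4) with control siRNA, a 2.12-fold fall (log2 fold change -1.08 ± 0.21 SE, limma adjusted p = 0.00101). With no background correction its log2 fold change was -0.58. A dimmer probe, ILMN_1766541, was detected on 0 TRPM2-AS siRNA arrays and on 3 of the 4 control siRNA arrays. Its log2 fold change of -0.45 did not pass (limma adjusted p = 0.113). Probe ILMN_1774997 was detected on 0 arrays.

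BID links death receptors to mitochondria once caspase 8 cuts it, and its result was near the threshold. It read 8.34, 8.96 and 8.67 on the TRPM2-AS siRNA arrays, against 8.04, 8.42, 8.25 and 8.32 on the control siRNA arrays. TRPM2-AS siRNA array 1 lay inside the control siRNA range, so the groups overlapped. The log2 fold change was 0.40 ± 0.16 SE (1.32-fold, limma adjusted p = 0.0468), and the call was lost in 9 of 20 alternatives, where the adjusted p ran from 0.00487 to 0.202. A second probe, ILMN_2372413, had a log2 fold change of 0.37 ± 0.11 SE with the groups apart (limma adjusted p = 0.0175 with each probe fitted on its own). Probe ILMN_2259495 was detected on 0 arrays.

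BAD is kept from the guardians by 14-3-3 proteins when phosphorylated, and it did not pass. It read 11.27, 11.75 and 11.78 on the TRPM2-AS siRNA arrays, against 11.15, 11.50, 11.48 and 11.58 on the control siRNA arrays. The groups overlapped, and the 95% confidence interval of the log2 fold change of 0.17 ran from -0.18 to 0.52 (limma adjusted p = 0.379). Its 3 detected probes went apart: ILMN_1720360 had a log2 fold change of 0.39 and passed on its own (limma adjusted p = 0.0462), while ILMN_1685398 had -0.06.

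**Figure D2:**
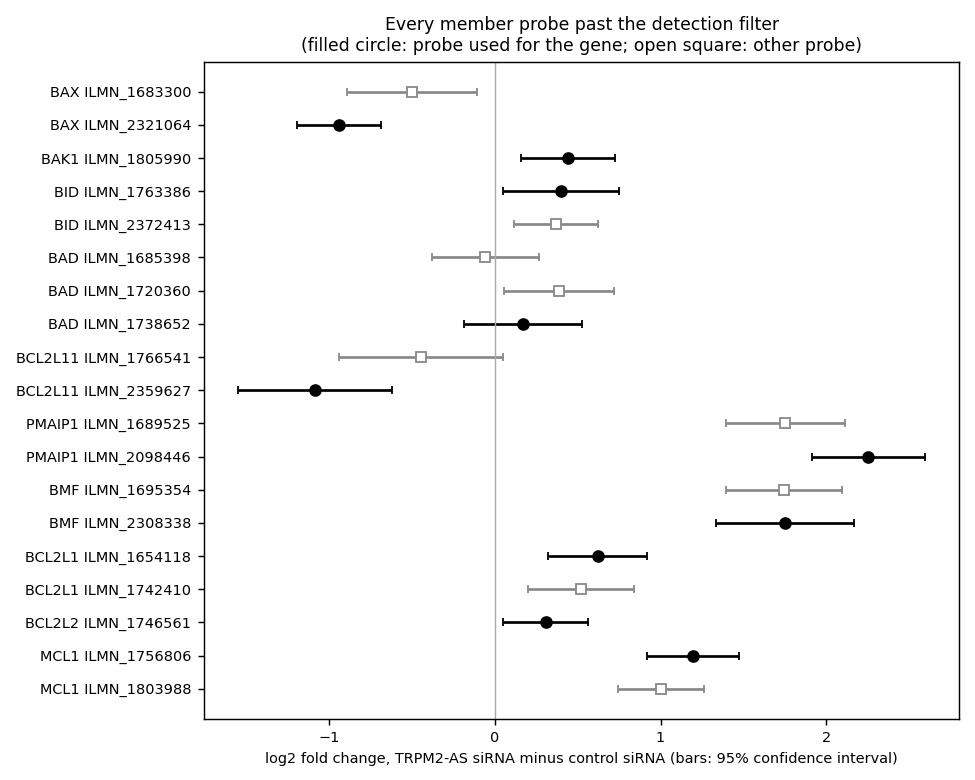
Log2 fold change (horizontal axis, TRPM2-AS siRNA minus control siRNA) with its 95% confidence interval for the 19 member probes past the detection filter, each fitted on its own. Filled circles are the probes used for the genes; both probes of PMAIP1, BMF, MCL1 and BCL2L1 lie right of 0, both of BAX and BCL2L11 left of it, and the 3 BAD probes lie on either side.

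The 3 anti-apoptotic members were all higher, MCL1 by the most, where 28.5% of all genes passed as higher. MCL1, a short-lived guardian that NOXA binds, read 10.09, 9.80 and 10.14 on the TRPM2-AS siRNA arrays, against 8.69, 8.84, 8.81 and 8.92 on the control siRNA arrays. The groups did not overlap, and MCL1 averaged 10.01 ± 0.18 (SD, n = 3) with TRPM2-AS siRNA and 8.81 ± 0.10 (SD, n = 4) with control siRNA. The rise was 2.29-fold (log2 fold change 1.19 ± 0.12 SE, limma adjusted p = 1.17e-05), and its other probe, ILMN_1803988, rose 2.00-fold.

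BCL2L1, the gene of BCL-XL, read 15.09, 14.88 and 14.76 on the TRPM2-AS siRNA arrays, against 14.41, 14.47, 14.15 and 14.14 on the control siRNA arrays. The groups did not overlap. The log2 fold change was 0.62 ± 0.13 SE (1.54-fold, limma adjusted p = 0.00218), and a second probe, ILMN_1742410, gave 0.52 ± 0.14 SE with the groups apart. BCL2L2, the gene of BCL-w, read 9.22, 9.11 and 8.97 on the TRPM2-AS siRNA arrays, against 8.74, 8.87, 8.72 and 8.84 on the control siRNA arrays. These groups were apart by a small gap, and the log2 fold change of 0.31 ± 0.11 SE (1.24-fold, limma adjusted p = 0.0367) was lost in 7 of 20 alternatives (limma adjusted p from 0.0249 to 0.110). BCL2L2 had 1 probe.

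The changes of guardians and their antagonist were also set against each other within arrays. PMAIP1 rose by 1.06 log2 units more than MCL1 (exact permutation p = 0.0286, adjusted p = 0.0429 over the 3 pairs), and by 0.67 more in the processed values of 8 samples (exact permutation adjusted p = 0.0286). BCL2L1 changed by 0.57 log2 units less than MCL1, which did not pass (difference in change -0.57, exact permutation p = 0.0571, adjusted p = 0.0571). In the processed values this difference was -0.42 and passed (exact permutation adjusted p = 0.0286).

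The authors' processed values cover all 8 samples, including TRPM2-AS siRNA replicate 3, which none of the raw columns used here matched; the other 7 are the same arrays, so they are not separate evidence. PMAIP1 had processed intensities of 723, 922, 754 and 806 in TRPM2-AS siRNA replicates 1 to 4, against 270, 276, 223 and 245 in control siRNA replicates 1 to 4. MCL1 had 1213, 1015, 1040 and 1255 with TRPM2-AS siRNA, against 526, 566, 573 and 601 with control siRNA. BAX had 1194, 1008, 1163 and 1126 with TRPM2-AS siRNA, against 2009, 2017, 2070 and 1955 with control siRNA. Replicate 3 of TRPM2-AS siRNA thus lay within the range of its group in all of these. For BCL2L11 the intensities were 173, 223, 210 and 172 with TRPM2-AS siRNA and 297, 250, 330 and 264 with control siRNA, and the groups did not overlap. For BMF they were 232, 203, 172 and 174 with TRPM2-AS siRNA and 123, 111, 109 and 129 with control siRNA. Here all members except BAD passed (limma), 7 higher and 2 lower, where 61.9% of all genes passed. The groups did not overlap for 8 members and for 54.8% of all genes. BMF is in both counts, though its probe was kept only through detection on the TRPM2-AS siRNA arrays. The log2 fold changes of these values, in which no background was removed here, were 1.66 for PMAIP1, 0.99 for MCL1, -0.84 for BAX and -0.55 for BCL2L11.

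**Figure D3:**
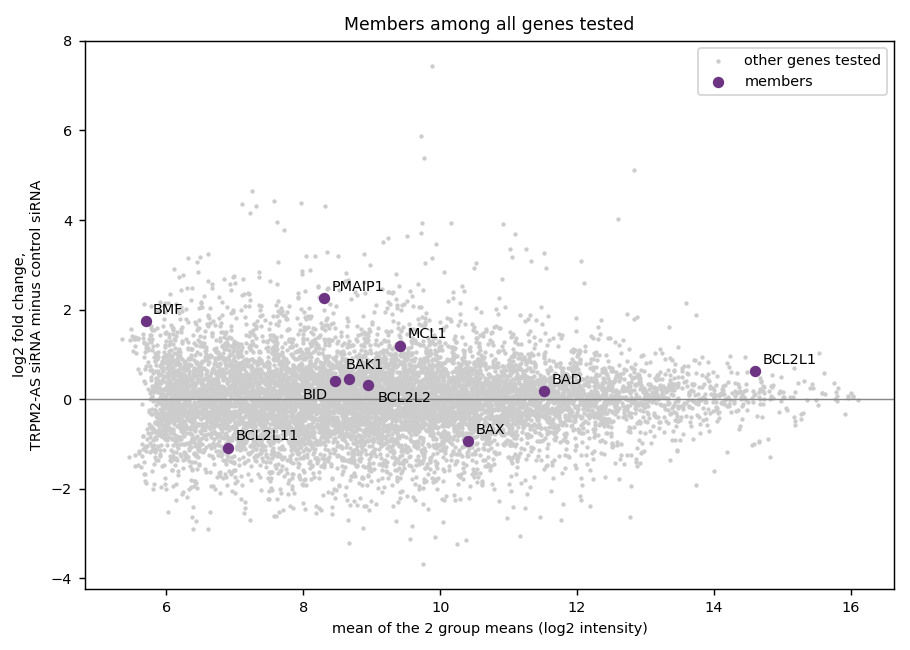
Log2 fold change (vertical axis, TRPM2-AS siRNA minus control siRNA) against the mean of the group means (horizontal axis, log2 intensity) for 9629 genes, with the 10 members in purple. PMAIP1 and BMF are the highest members and BCL2L11 the lowest; BMF was not above background on control siRNA arrays, so its fitted value is no bound.

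For PMAIP1, MCL1 and BAX the genes of most similar pattern were found by the root mean square difference between log2 profiles over the 7 arrays, each centred on its own mean, among 9628 other genes. The nearest to PMAIP1 were SGK1 (0.14 log2 units), INPP4B (0.15) and PAQR3 (0.15). The nearest to MCL1 were RNF11 (0.04), TPM3P9 (0.06) and RP2 (0.08). The nearest to BAX were METTL3, ENSA and WBP1, with 0.06, 0.06 and 0.07. These profiles follow mainly the difference between the groups, which the arrays share.

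Other members of the wider family were taken as a list of 16 genes, of which 10 were tested: 5 rose and 1 fell, where 57.3% of all genes passed, 28.5% higher and 28.8% lower (median log2 fold change 0.35, against 0.00 over all genes). A share of calls like that of all genes says nothing particular of the list. The mitophagy receptor BNIP3L rose 2.35-fold, with 11.45, 11.23 and 11.26 on the TRPM2-AS siRNA arrays against 10.40, 9.82, 10.18 and 9.92 on the control siRNA arrays (limma adjusted p = 3.9e-05). Its dimmer probe, ILMN_2045419, had a log2 fold change of 0.68 with the groups overlapping (limma adjusted p = 0.0276 with each probe fitted on its own). BNIP2 rose 2.10-fold, and BOK, an effector relative of BAX and BAK1, rose 1.53-fold (limma adjusted p = 0.00401). HRK, a BH3-only gene, had 6.59, 7.25 and 7.17 on the TRPM2-AS siRNA arrays, against 6.20, 6.12, 5.67 and 5.96 on the control siRNA arrays, and rose (log2 fold change 1.02 ± 0.18 SE, limma adjusted p = 0.000618); it was detected on 2 of 4 control siRNA arrays, and its log2 fold change was 0.49 with no background correction and 0.57 in the processed values. BNIP3 had a log2 fold change of 0.37 (limma adjusted p = 0.022), lost with 1 median per array (adjusted p = 0.0797) and without control siRNA array 2 or TRPM2-AS siRNA array 1.

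BCL2L12 was the 1 gene of that list that fell, by 1.73-fold (log2 fold change -0.79 ± 0.12 SE, limma adjusted p = 0.000244), and its 3 detected probes all fell with the groups apart. BCL2L13 (0.31), BECN1 (0.33), BNIP1 (-0.23) and BIK (-0.07) did not pass. BIK spread widely with TRPM2-AS siRNA, at 6.58, 7.78 and 7.68, against 7.12, 7.69, 7.49 and 7.39 with control siRNA, and its sign changed with the processing. On its brightest probe BCL2 itself was detected on 0 TRPM2-AS siRNA arrays and on 1 of the 4 control siRNA arrays. The brightest probes of the anti-apoptotic BCL2A1 and BCL2L10, the BH3-only gene BBC3 (PUMA), and BCL2L14 and BCL2L15 were detected on 0 arrays.

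Of 30 genes for partners and protein turnover of the family, 26 were tested, 6 rose and 4 fell, against 57.3% of all genes that passed (median 0.15). USP9X, a deubiquitinase that stabilises MCL1, fell 3.92-fold (log2 fold change -1.97 ± 0.13 SE, limma adjusted p = 4.79e-07). BTRC and FBXW7, substrate receptors of ubiquitin ligases that act on MCL1, also fell: FBXW7 fell 2.11-fold on its brighter probe (the other, ILMN_1668634, had a log2 fold change of -0.70 with the groups overlapping), and BTRC, below background on the 3 TRPM2-AS siRNA arrays and above it on the 4 control siRNA arrays, was at least 2.10-fold lower. BTRC entered the test only through the control siRNA arrays, where it is high, and so had to differ. Its bound holds with background correction: without it the log2 fold change of BTRC was -0.73, and in the processed values -0.80, both smaller than the bound. TMBIM6, known as BAX inhibitor 1, fell 2.68-fold (limma adjusted p = 1.45e-06). The kinases AKT1, which phosphorylates BAD, and GSK3B, which phosphorylates MCL1, rose 2.09-fold and 2.02-fold.

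Of 26 transcription factors known to act on family genes, 20 were tested, 9 rose and 2 fell, against 57.3% of all genes that passed (median 0.35). ATF3 rose 5.13-fold (log2 fold change 2.36 ± 0.13 SE, limma adjusted p = 1.45e-07). DDIT3, which encodes CHOP, rose 3.19-fold, KLF6 2.33-fold and KLF4 2.10-fold, and ETS2 rose by 1.59 on the log2 scale. FOS was seen on all 3 TRPM2-AS siRNA arrays, on 0 of the 4 control siRNA arrays, and was at least 2.65-fold higher with background correction. It entered the test only through the TRPM2-AS siRNA arrays and so had to differ, and its log2 fold change was 1.03 with no background correction and 1.08 in the processed values, smaller than the bound. The 2 that fell, named after their values were seen, were MYC (-0.75) and SP1 (-1.05). The forkhead factors FOXO1 (-0.35), FOXO3 (-0.23) and FOXO4 (0.42), also named after their values were seen, did not pass.

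Downstream of the pores, 14 of 17 genes for release from mitochondria and the apoptosome were tested, with 6 higher and 3 lower, against 57.3% of all genes that passed (median 0.03). CYCS, encoding cytochrome c, was seen on all 3 TRPM2-AS siRNA arrays, on 0 of the 4 control siRNA arrays, and was at least 4.62-fold higher with background correction. It too entered the test only through the arrays where it is high, and its log2 fold change was 1.33 with no background correction and 1.31 in the processed values, smaller than the bound. Of the mitochondrial fusion genes, MFN1 rose 1.59-fold, MFN2 fell 1.76-fold, and OPA1, named after its values were seen, did not pass (log2 fold change -0.05, limma adjusted p = 0.801). The fission GTPase DNM1L fell 1.92-fold on its brightest probe, and its probe ILMN_1685260 also fell (log2 fold change -0.76). Its probe ILMN_1724826 had a log2 fold change of 0.15 with the groups overlapping, and the mean of its probes gave -0.52. HTRA2, which antagonises inhibitors of caspases, fell 1.58-fold. DIABLO, which has the same role, rose 1.44-fold on its brightest probe, and its probe ILMN_2332990 also rose (log2 fold change 0.41). Its probe ILMN_1665335 fell (log2 fold change -1.38, limma adjusted p = 5.33e-05 with each probe fitted on its own), so the direction of DIABLO depends on the probe.

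**Figure D4:**
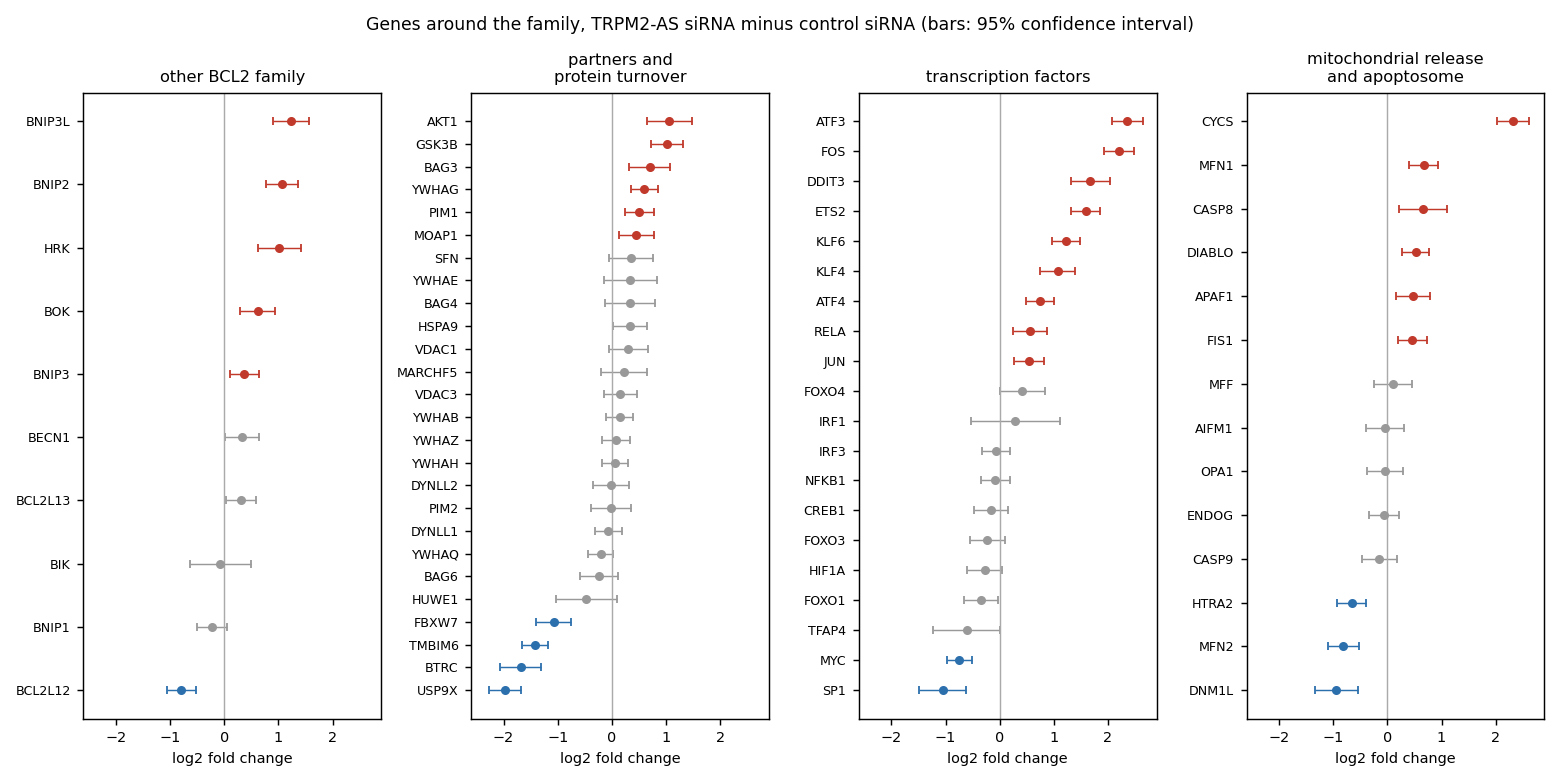
Log2 fold change (horizontal axes, TRPM2-AS siRNA minus control siRNA) with 95% confidence intervals for the tested genes of the 4 lists, sorted within each list. Red genes passed as higher, blue as lower and grey did not pass; FOS, CYCS and BTRC were not above background in 1 group, so their fitted values are no bounds.

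Promoter windows were found for 8 of the 10 members, 15 windows in all, and none was found for MCL1 and BCL2L2. They were searched on both strands for TGACGT (ATF and CREB core), TGATGNAA (C/EBP and ATF composite core), TGANTCA (AP-1), the interferon response element core, GGGCGG (GC box of SP1), GTAAACA (FOXO) and CACGTG (E-box of MYC). GGGCGG lies in 12 of the 15 windows and in at least 1 window of each of the 8 genes, and in 45% of all 35116 windows. TGACGT lies in PMAIP1 on the reverse strand, 56 bases before the start, and in both BAD windows, against 7.98% of all windows. CACGTG occurs 4 times in the BAX window and in windows of BID, and in 7.26% of all windows. GTAAACA lies in the BCL2L11 window and in 3.42% of all windows. TGATGNAA, TGANTCA and the interferon response element core have 0 matches in the 15 windows, and 3.62%, 7.71% and 3.57% of all windows hold them. The BAD windows overlap each other, as do some BID windows, and a match only says that these letters are present.

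**Figure D5:**
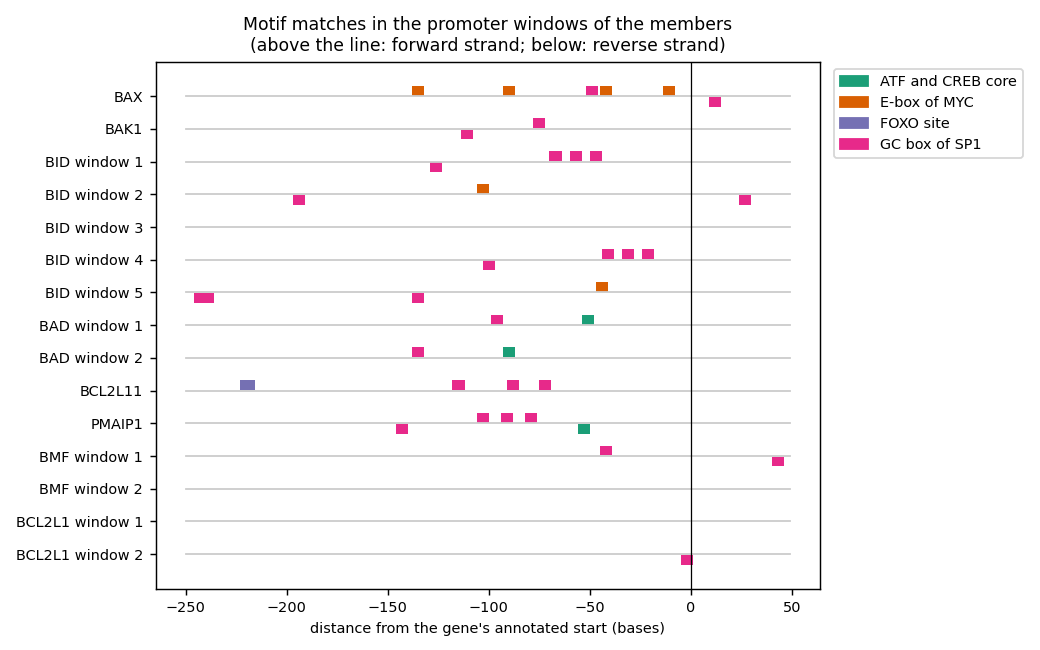
Motif matches along the 15 promoter windows of 8 members, by distance from the annotated start in bases (horizontal axis), with forward-strand matches above and reverse-strand matches below each line; genes with several annotated starts have numbered windows. The BAX line carries 4 E-box matches, the PMAIP1 line 1 ATF and CREB match, and GC boxes are on 12 of the 15 lines.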

How the data were processed

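Total RNA of 8 PC3 samples was measured on Illumina bead arrays in 1 colour. The first deposited table holds raw intensity per probe with a detection p-value, per the file headers; BeadStudio, with no version, is named in the submitters' processing notes. The other table gives an intensity for all 8 samples as processed by the authors; its columns share 1 distribution, and the submitters' processing notes name limma. Raw columns were assigned to groups by name; 1 of them, the TRPM2-AS siRNA column numbered 2, was not used because it ranked probes like none of the samples, while the other 7 each ranked them exactly as 1 sample of their group.

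Signals were corrected with limma 3.58.1 in R 4.3.3 (normal-exponential model from the detection p-values, offset 16), quantile normalized and log2 transformed. Probes with detection p under 0.01 on at least 3 of 7 arrays were kept, so that a gene seen in either group alone could enter; this took 14400 probes. The brightest probe stood for each gene (28094 probes had 1 gene name, 13 several and 20691 none; 0 names needed an update), which gave 9629 genes, fitted with lmFit and eBayes (two-sided, Benjamini-Hochberg). Differences between members used exact permutation tests over arrays. A bound for a gene not above background in 1 group takes for each array there the lowest signal among detected probes, or the gene's signal if that was larger. The fit was tested on simulated data. Precision is limited by the number of arrays: log2 fold changes had a median SE of 0.14.

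The members and lists were chosen with earlier results of these data known. Named are all members and their probes, tested or detected genes of the wider family, the 6 genes of smallest p that passed in each list, and the 3 genes most like PMAIP1, MCL1 and BAX; others are marked where named. The 20 alternatives changed the background step or offset (2), scaling between arrays (2), the filter on dim probes (3), how probes stand for a gene (2), variance moderation and array weighting (2), used the authors' processed values without and with a replicate block (2), or left out 1 array (7). Some genes of the lists are not reported here.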

Additional observations from a re-analysis of the deposited data

How the results depend on the processing

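The 20 alternatives gave 196 values for the 10 members. Of these, 180 kept their direction and side of the threshold, 16 lost the call (9 for BID, 7 for BCL2L2) and 0 turned. Between 6 and 9 members passed, with BAX and BCL2L11 lower each time; with 1 median per array or no filter on dim probes 7 passed. Leaving out 1 array gave 6 (without TRPM2-AS siRNA array 3) to 9 members and 4840 to 5246 genes. BMF was not tested with detection on at least 4 arrays or without any TRPM2-AS siRNA array. BIK, not called, turned to 0.21 with array weights, 0.0095 in the authors' processed values with or without the block, 0.014 without control siRNA array 2 and 0.31 without TRPM2-AS siRNA array 1; with each array left out it ran from -0.29 to 0.31. BCL2L13 passed in 9 alternatives and BECN1 in 2. DIABLO turned to -0.15 with the mean of its probes, which disagree. With each array left out, PMAIP1 minus MCL1 ran from 0.85 to 1.20 and BAX minus BAK1 from -1.46 to -1.27. The adjusted p over the 3 pairs was 0.0667 or 0.1 (exact permutation test). With so few arrays this test cannot give a p under 0.05 even before adjustment, so these p-values say nothing of stability. BCL2L1 minus MCL1 was -0.42 and passed in the processed values.

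In the processed values, same-numbered samples of the groups had deviations from their group means that correlated across genes at 0.39, -0.0655, 0.09 and 0.22 for replicates 1 to 4. Differently numbered samples correlated at -0.30 to 0.17. The numbers were not taken as pairs, a question that these values do not settle. The fit with the replicate block called 6272 genes, against 5962 without it, and 9 members, with no member's call changed. Probes near background limit the BCL2L11, HRK, BMF, BTRC, FOS and CYCS values. No outlying sample was found in 30 tests of 4 samples each. These covered the members on the raw control siRNA arrays and in both groups of the processed values. The raw values of the 3 TRPM2-AS siRNA arrays were not tested.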
